A study of Homo sapiens with 24 samples.

Results

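The transcription factor genes PTF1A, BHLHA15, NR5A2, GATA6, GATA4, PDX1, FOXA2 and MYC, which form or border the pancreatic acinar network, were followed by name through RNA-Seq gene counts of Panc-1 cells, a long-established human pancreatic ductal adenocarcinoma line. They are 8 of the 14426 genes that the deposited tables listed. Of these, 6 (NR5A2, GATA6, GATA4, PDX1, FOXA2 and MYC) were listed for all 3 derived lines, and PTF1A and BHLHA15 were listed for Tet-PTF1a cells only. The lines carried the Tet-One plasmid with no insert (Tet-One), with the rat MIST1 open reading frame with a myc tag (Tet-MIST1) or with the mouse PTF1a open reading frame with a myc tag (Tet-PTF1a), all under doxycycline (Dox) control. Each line was kept without Dox (Control) or with 1 µg/ml Dox for 72 h, with 4 libraries in each of the 6 groups, 24 in all. Each line was an individual clone selected in puromycin and screened for its Dox response. The passage number was 33 for Tet-MIST1 and 32 for the others. A difference between lines therefore cannot be told apart from a difference between clones. In comparisons with Tet-MIST1 it cannot be told apart from a difference between passages either. The study's methods call the 4 libraries of a group biological replicates without saying how the cultures were kept apart, so p-values measure the spread between these libraries.

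PTF1A is a basic helix-loop-helix (bHLH) factor that binds DNA with an E protein partner and RBPJ or RBPJL as the PTF1 complex, and in the adult pancreas it drives digestive enzyme genes and its own gene. MIST1, the product of BHLHA15, is a bHLH factor that scales up the secretory machinery of acinar cells. The nuclear receptor NR5A2 works with PTF1A in mature acinar cells, GATA4 and GATA6 act in pancreatic progenitors and acinar maintenance, and PDX1 and FOXA2 are factors of foregut endoderm and pancreatic progenitors. MYC is a growth regulator that heterodimerizes with MAX and has been described as opposed to acinar differentiation.

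The counts on listed genes ran from 17210989 to 43018494 per library and were lower and less even in Tet-PTF1a than in the other lines. The libraries were scaled together over the 13506 genes common to the tables, and CPM values below (counts scaled to the same effective total in each library) are on that joint scale. Tet-One Dox replicate 1 stood apart with a scaling factor of 0.892, against 0.966 to 1.05 in the other 23 libraries. Replicates were also compared in pairs by chi-square over its degrees of freedom. Tet-One Dox replicate 1 was at 223 to 238 against its replicates, which were at 4.24 to 5.44 among themselves. Tet-MIST1 Dox replicate 1 stood apart less, at 27.3 to 45.1, against 5.31 to 7.71 among its replicates. As a check of cell identity, 4 of 5 Panc-1 markers fixed for this purpose (KRT8, KRT18, KRT19 and VIM) had group means of at least 69.4 CPM in every group, and KRT7 was low with group means of 1.40 to 5.59 CPM. Of 6 acinar enzyme markers only PRSS1 was listed, and in Tet-PTF1a only, at 0.0550 CPM in Control and 3.06 CPM in Dox. None of 4 endocrine markers (INS, GCG, SST, CHGA) was listed, and of 4 markers of leukocytes, endothelium and fibroblasts only CD68 was listed. The keratins and VIM were not constant. In Tet-PTF1a Dox against Control KRT8, KRT18, KRT19 and VIM fell by 1.30, 1.10, 1.07 and 0.33 on the log2 scale, while KRT7 rose by 1.64. CD68 fell by 0.97 in the same comparison and by 0.27 in Tet-MIST1 Dox against Control. The part of these markers in the results below was not tested, and in bulk RNA fewer cells with a transcript and less of it per cell cannot be told apart.

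Promoter windows are shown for the factors that were higher in Tet-PTF1a Dox than in Control and whose symbol matched the RefSeq promoter table (GRCh38.p14). BHLHA15, NR5A2 and GATA6 were matched, NR5A2 with a pair of start sites, and PTF1A, GATA4, PDX1, FOXA2 and MYC were not. Each window is the 250 bases before the start site, 5′ to 3′ on the strand of the gene. The windows lie at chr7:98211189-98211438 (plus strand, BHLHA15), chr1:200027460-200027709 and chr1:200042341-200042590 (plus strand, NR5A2) and chr18:22169339-22169588 (plus strand, GATA6). Capitals mark E boxes (CANNTG, the letters that bHLH dimers read) and, in NR5A2, also GATA motifs (AGATAA, here on the minus strand as TTATCT) and a FOXA motif (TGTTTAC, here as GTAAACA).
BHLHA15: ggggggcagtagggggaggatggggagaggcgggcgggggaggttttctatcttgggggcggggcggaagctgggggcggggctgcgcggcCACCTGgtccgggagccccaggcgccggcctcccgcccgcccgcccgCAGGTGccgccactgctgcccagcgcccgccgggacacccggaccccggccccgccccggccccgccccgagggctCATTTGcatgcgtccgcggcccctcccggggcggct
NR5A2 first start: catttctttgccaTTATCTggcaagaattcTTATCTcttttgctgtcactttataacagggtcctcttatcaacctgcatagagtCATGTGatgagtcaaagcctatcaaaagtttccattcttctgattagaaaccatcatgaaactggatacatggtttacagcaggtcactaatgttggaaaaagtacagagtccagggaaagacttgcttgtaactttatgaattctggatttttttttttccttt
NR5A2 second start: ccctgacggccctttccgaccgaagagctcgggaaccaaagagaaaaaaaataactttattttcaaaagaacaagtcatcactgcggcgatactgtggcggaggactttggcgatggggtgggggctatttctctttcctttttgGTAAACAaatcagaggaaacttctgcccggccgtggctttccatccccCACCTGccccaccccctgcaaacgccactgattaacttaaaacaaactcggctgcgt
GATA6: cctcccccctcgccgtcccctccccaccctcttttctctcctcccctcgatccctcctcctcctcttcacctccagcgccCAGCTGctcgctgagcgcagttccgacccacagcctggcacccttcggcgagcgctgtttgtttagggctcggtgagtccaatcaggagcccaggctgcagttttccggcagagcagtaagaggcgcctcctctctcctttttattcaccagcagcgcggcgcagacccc
BHLHA15 had 3 E boxes, with first bases at -159, -112 and -36 from the start. The upstream NR5A2 window had an E box at -165 and GATA motifs at -237 and -220, and the downstream NR5A2 window had an E box at -57 and a FOXA motif at -105. GATA6 had an E box of the form CAGCTG at -170. Both strands were searched, and the motifs did not overlap in these windows other than that CAGCTG is itself an E box. Over 35116 RefSeq windows of the same length, 61.8% held an E box, 14.0% CAGCTG, 9.17% AGATAA and 2.98% TGTTTAC, so an E box alone is common. None of the 4 windows held TGGGAAA (the TC box letters of the PTF1 site, in 6.88% of all windows), AAGGTCA (an NR5A2 recognition core, 3.44%), CACGTG (6.35%) or TAATTA (4.35%). These matches describe letters only.

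The targeted genes were examined first. Human PTF1A (hg19 chr10:23481460-23483181, plus strand) had 2, 1, 0 and 2 counts in the 4 Tet-PTF1a Control libraries and 95, 148, 53 and 168 counts in the 4 Dox libraries. All Dox libraries lay above all Control libraries. The Dox mean was 4.92 ± 1.71 CPM (SD, n = 4), at least 43.4-fold higher than 3 counts per Control library would give. The count table does not separate reads of the endogenous human gene from reads of the mouse insert that align to it, and these sources cannot be told apart. PTF1A was kept by the filter only through its Dox libraries (above 0.5 CPM in 0 Control and 4 Dox libraries), so it had to differ.

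BHLHA15 (chr7:97841566-97842271, plus strand), the human MIST1 gene, was listed for Tet-PTF1a and not for Tet-MIST1, in which a rat sequence was induced. Its counts in Tet-PTF1a were 16, 8, 2 and 6 in Control and 12, 13, 14 and 22 in Dox, from libraries of unequal depth. On the CPM scale these were 0.369, 0.435, 0.0960 and 0.154 in Control and 0.668, 0.595, 0.700 and 0.651 in Dox, and the groups did not overlap. The log2 fold change was 1.11 (SE 0.336, edgeR FDR 0.00100). Like PTF1A it passed the filter only through Dox (0 Control and 4 Dox libraries), and its highest level was 0.700 CPM. In place of BHLHA15, the Tet-MIST1 label was checked by 7 vesicle trafficking or unfolded protein response genes that the study names as MIST1 targets. All 7 were called higher in Tet-MIST1 Dox (11.9% of all genes tested were called higher). RAB26 stood at 15.1 ± 1.84 CPM in Control and 64.7 ± 4.14 CPM in Dox (n = 4 each), and RAB3D at 21.9 ± 0.594 and 61.0 ± 1.81 CPM. The Dox response differed from that of Tet-One for 4 of the 7 (1.66% of all genes tested). SEC61B, SEC62 and DNAJC1 did not pass that test. EIF2AK3 passed it but also rose in Tet-PTF1a Dox (0.37, edgeR FDR 7.72e-10), so it does not mark the Tet-MIST1 label. The study took the 7 genes from earlier work as MIST1 targets and examined them in the same lines.

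NR5A2 (chr1:199996730-200146550, plus strand) showed the widest range of the 6 factors listed for all lines. On the log2 scale most of its range lay between lines rather than between Dox and Control. In Control it stood at 10.0, 10.0, 10.2 and 9.90 CPM in Tet-One, at 0.833, 0.770, 0.587 and 0.892 CPM in Tet-MIST1 and at 38.1, 38.7, 38.3 and 37.6 CPM in Tet-PTF1a. No library of any line overlapped with another line. Uninduced Tet-PTF1a cells thus had 3.80 times the level of uninduced Tet-One cells and 49.6 times that of uninduced Tet-MIST1 cells, and Tet-One had 13.0 times the level of Tet-MIST1. The corresponding log2 fold changes were 1.90 (SE 0.0444, edgeR FDR 2.23e-15), 5.52 (SE 0.0780, FDR 7.48e-31) and, for Tet-MIST1 against Tet-One, -3.63 (SE 0.102, FDR 8.51e-17). By absolute log2 fold change, NR5A2 ranked 30 of 13470 genes tested between uninduced Tet-PTF1a and Tet-MIST1. In CPM, the gap between these uninduced lines and the rise with Dox in Tet-PTF1a were both 37.4.

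With Dox, NR5A2 rose further in the line that already had most of it. The Tet-PTF1a Dox libraries were at 70.8, 76.3, 78.8 and 76.3 CPM, all above every Control library. The log2 fold change was 0.99 (SE 0.0351, edgeR FDR 3.71e-29), from 38.2 ± 0.440 to 75.5 ± 3.39 CPM (SD, n = 4 each). In Tet-MIST1 the Dox libraries stood at 0.662, 0.922, 0.751 and 0.779 CPM and overlapped with Control (log2 fold change 0.02, 95% interval -0.37 to 0.40, FDR 0.948). In Tet-One the Dox libraries stood at 7.97, 9.34, 9.26 and 9.79 CPM, just below the Control range without passing the test (-0.14, 95% interval -0.33 to 0.05, FDR 0.897). The NR5A2 response of Tet-PTF1a differed from that of Tet-One by 1.13 (SE 0.0831, FDR 1.47e-07) and from that of Tet-MIST1 by 0.98 (SE 0.160, FDR 5.61e-05) in the edgeR interaction test. Leaving out Tet-One Dox replicate 1 left the difference from Tet-One at 1.08 (FDR 2.47e-13).

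**Figure D1:**
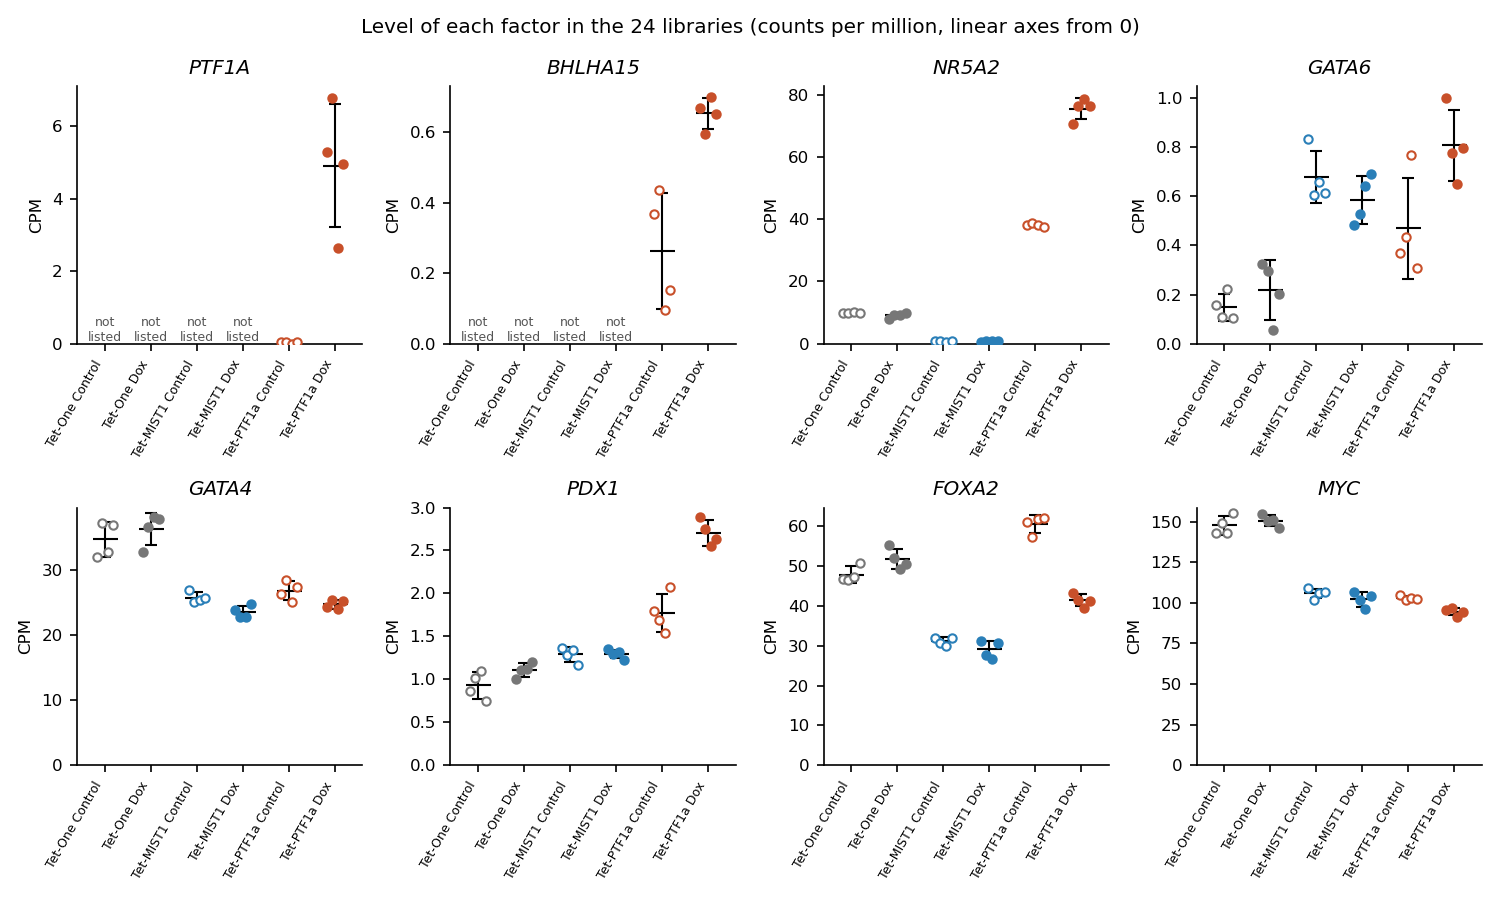
Level of each factor (CPM, linear axis from 0) in each library, with open points for Control and filled points for Dox, grey for Tet-One, blue for Tet-MIST1 and orange for Tet-PTF1a; the black bar and whiskers are the mean and SD of 4 libraries. NR5A2 separates the lines before Dox is added (10.0, 0.770 and 38.2 CPM on average in the Control libraries of Tet-One, Tet-MIST1 and Tet-PTF1a), FOXA2 falls from 60.6 to 41.4 CPM in Tet-PTF1a, and MYC is highest in both Tet-One groups.

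GATA6 (chr18:19749398-19782491, plus strand) was scarce throughout, with 2 to 33 counts per library. Its group means ranked from 0.807 ± 0.145 CPM in Tet-PTF1a Dox through 0.677 ± 0.106 in Tet-MIST1 Control, 0.586 ± 0.0966 in Tet-MIST1 Dox and 0.470 ± 0.206 in Tet-PTF1a Control to 0.219 ± 0.122 in Tet-One Dox and 0.147 ± 0.0564 in Tet-One Control (SD, n = 4 each), and each neighbour in that order overlapped with the next. In Tet-PTF1a the Control libraries were at 0.369, 0.435, 0.768 and 0.307 CPM and the Dox libraries at 1.00, 0.779, 0.650 and 0.798 CPM. Control replicate 3 lay inside the Dox range, and the log2 fold change was 0.80 (SE 0.282, edgeR FDR 0.00667). One Control library and 4 Dox libraries were above 0.5 CPM, so GATA6 passed the filter through Dox. In Tet-MIST1 it did not pass the test (-0.21, 95% interval -0.63 to 0.18, FDR 0.432), and the responses of these lines differed by 1.03 (SE 0.335, FDR 0.0109). GATA6 was listed for Tet-PTF1a through Dox, so that difference gives no support to a direction. In Tet-One it was under the filter of the test. Between uninduced lines GATA6 was higher in Tet-MIST1 than in Tet-One by 1.87 (SE 0.278, FDR 6.81e-07) and lower in Tet-PTF1a than in Tet-MIST1 by a log2 fold change of -0.61 (SE 0.257, FDR 0.0165). Above 0.5 CPM were 0 Tet-One, 4 Tet-MIST1 and 1 Tet-PTF1a Control libraries, so GATA6 passed the filter of both comparisons through Tet-MIST1, where it was higher, and these calls give no support to a direction. Against Tet-One, Tet-PTF1a was under the filter and differed by 1.23 with no filter (FDR 0.00187). The call between Tet-PTF1a and Tet-MIST1 was lost in DESeq2 (adjusted p 0.0730) and without Tet-MIST1 Control replicate 1 (FDR 0.0590), Tet-PTF1a Control replicate 1 (0.0708) or Tet-PTF1a Control replicate 4 (0.0983).

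GATA4 (chr8:11534428-11617511, plus strand) was far more abundant than GATA6 and moved little with Dox. Its Control libraries were at 32.1, 37.3, 32.9 and 36.9 CPM in Tet-One, at 27.0, 25.2, 25.4 and 25.7 CPM in Tet-MIST1 and at 26.4, 28.6, 25.2 and 27.4 CPM in Tet-PTF1a. Tet-One lay above the other lines, which overlapped with each other. The log2 fold change against Tet-One was -0.43 (SE 0.0536, edgeR FDR 5.04e-07) in Tet-MIST1 and -0.39 (SE 0.0578, FDR 1.09e-05) in Tet-PTF1a, and between Tet-PTF1a and Tet-MIST1 it was 0.04 (95% interval -0.05 to 0.13, FDR 0.384). With Dox, GATA4 stood at 22.8 to 24.8 CPM in Tet-MIST1 and 24.1 to 25.5 CPM in Tet-PTF1a. Neither difference passed the test, at a log2 fold change of -0.13 (FDR 0.0770) in Tet-MIST1 and -0.11 (FDR 0.0507) in Tet-PTF1a. The Tet-PTF1a value lies at the threshold: it passed with RLE scaling (FDR 0.0493) and without Control replicate 1 (0.0402) or Control replicate 3 (0.0257).

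PDX1 (chr13:28494168-28500451, plus strand), the homeobox factor that pancreas formation depends on, was low in all groups and rose in Tet-PTF1a with Dox. The Tet-PTF1a libraries were at 1.80, 1.69, 1.54 and 2.07 CPM in Control and 2.89, 2.75, 2.55 and 2.63 CPM in Dox, and the groups did not overlap. The log2 fold change was 0.55 (SE 0.141, edgeR FDR 6.94e-04). In Tet-MIST1 the means were 1.29 ± 0.0855 CPM in Control and 1.30 ± 0.0504 CPM in Dox (n = 4 each, FDR 0.995), and in Tet-One 0.928 ± 0.156 and 1.11 ± 0.0834 CPM (FDR 0.897). The response of Tet-PTF1a differed from that of Tet-MIST1 by 0.57 (SE 0.162, FDR 0.0127). Its difference from the Tet-One response was 0.33 and did not pass (95% interval -0.06 to 0.71, FDR 0.384). Before Dox, PDX1 was 1.91 times higher in Tet-PTF1a than in Tet-One and 1.39 times higher in Tet-MIST1 than in Tet-One, with log2 fold changes of 0.91 (FDR 3.55e-05) and 0.45 (FDR 0.00804).

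FOXA2 (chr20:22561642-22566101, minus strand), a forkhead factor that opens chromatin in endoderm, was the factor with the largest fall in Tet-PTF1a Dox. In Tet-PTF1a it stood at 61.1, 57.2, 61.9 and 62.1 CPM in Control and at 43.2, 41.5, 39.6 and 41.2 CPM in Dox. The groups were far apart, and the log2 fold change was -0.55 (SE 0.0364, edgeR FDR 2.59e-18). The uninduced Tet-PTF1a level was the highest of the 6 groups and the induced level lay below both Tet-One groups (47.8 ± 2.05 CPM in Control, 51.7 ± 2.59 CPM in Dox) and above both Tet-MIST1 groups (31.2 ± 1.04 and 29.1 ± 2.19 CPM, SD, n = 4 each). FOXA2 did not pass the test in Tet-MIST1 (-0.11, 95% interval -0.24 to 0.02, FDR 0.218) or in Tet-One (0.12, 95% interval -0.04 to 0.27, FDR 0.897). The Tet-PTF1a response differed from that of Tet-One by -0.66 (SE 0.0723, FDR 1.09e-05) and from that of Tet-MIST1 by -0.43 (SE 0.0720, FDR 7.33e-05). Between uninduced lines FOXA2 was lower in Tet-MIST1 than in Tet-One (-0.62, FDR 1.80e-10) and higher in Tet-PTF1a than in Tet-One (0.33, FDR 1.54e-06).

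MYC (chr8:128748315-128753680, plus strand) was the most abundant of the 8 factors and differed by line. Its Control libraries were at 143, 149, 143 and 156 CPM in Tet-One, at 109, 102, 106 and 107 CPM in Tet-MIST1 and at 105, 102, 103 and 103 CPM in Tet-PTF1a. Tet-One lay above both other lines, 1.40-fold over Tet-MIST1 (log2 fold change of Tet-MIST1 against Tet-One -0.48, SE 0.0375, edgeR FDR 6.70e-10) and 1.43-fold over Tet-PTF1a (-0.53, SE 0.0340, FDR 3.03e-10). Tet-MIST1 and Tet-PTF1a overlapped and differed by -0.05 (95% interval -0.11 to 0.01, FDR 0.0926). With Dox, MYC in Tet-PTF1a was at 95.4, 97.1, 91.5 and 94.6 CPM, below every Control library by a small margin. That log2 fold change was -0.12 (SE 0.0281, FDR 2.95e-04), from 103 ± 1.26 to 94.6 ± 2.34 CPM (SD, n = 4 each), in the line with the smallest spread between libraries (biological coefficient of variation 2.80%, against 6.58% in Tet-MIST1 and 14.4% in Tet-One). The Tet-One value includes Dox replicate 1, which stood apart. Fits of the Tet-One Control libraries with those of Tet-MIST1 or Tet-PTF1a gave 4.46% and 4.33%. In Tet-MIST1 the log2 fold change of MYC with Dox was -0.05 (95% interval -0.16 to 0.05, FDR 0.415). The difference between the Tet-PTF1a response and those of Tet-One (-0.15, FDR 0.122) and Tet-MIST1 (-0.06, FDR 0.431) did not pass the test.

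**Figure D2:**
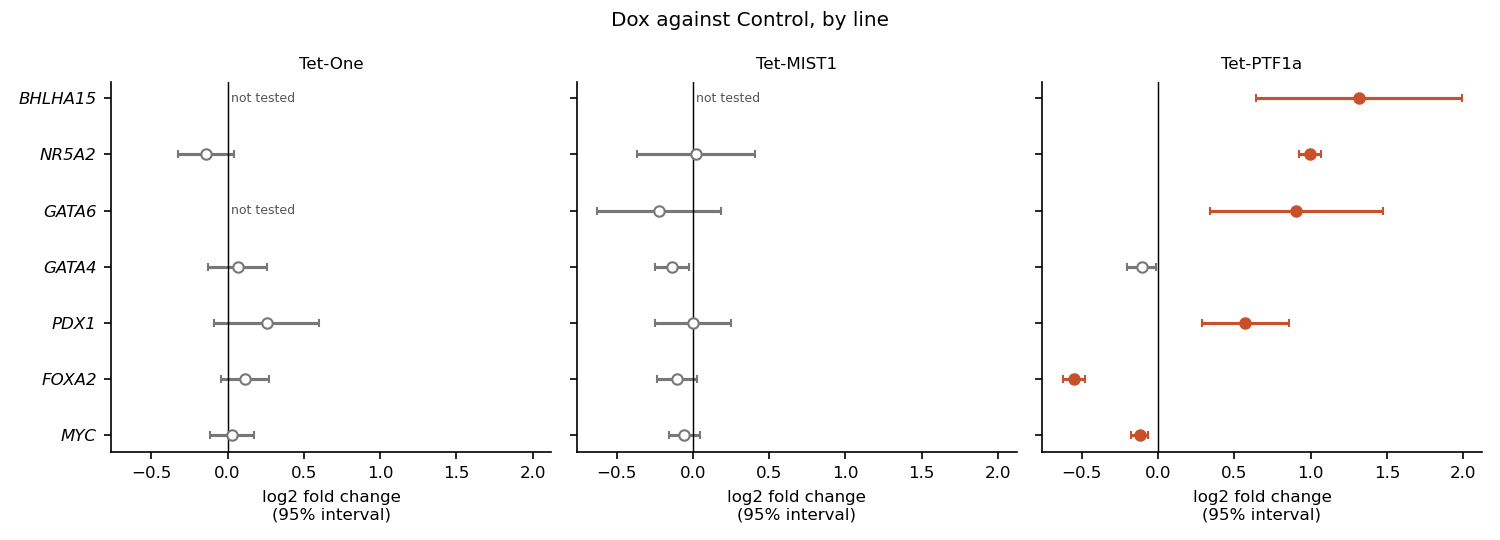
Log2 fold change of Dox against Control for each factor (edgeR estimate without a prior count, with 95% interval, 4 libraries per group), one panel per line; filled orange points passed FDR 0.05 and open grey points did not. PTF1A is left out because its Control libraries held 0 to 2 counts. In Tet-PTF1a the intervals of BHLHA15, NR5A2, GATA6 and PDX1 lie above 0 and those of FOXA2 and MYC below 0, while no factor passed in Tet-One or Tet-MIST1.

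Counted over the factors tested, 7 of 8 were called in Tet-PTF1a (5 higher, 2 lower), where 48.2% of all 14053 genes tested were called (23.8% higher, 24.4% lower). PTF1A, BHLHA15 and GATA6 passed the filter through their Dox libraries, so the count gives no support to a direction. In Tet-MIST1 0 of 6 were called, where 20.6% of all genes tested were called, and at an unadjusted p under 0.05 only GATA4 stood out (p 0.0206 in edgeR). DESeq2 also called 0 of 6 in Tet-MIST1, as did edgeR without Tet-MIST1 Dox replicate 1. In Tet-One 0 of 5 were called by edgeR or DESeq2, and 0% of all genes tested; 401 genes reached an unadjusted p under 0.05 in edgeR and 472 in DESeq2, none of them a factor in the edgeR fit. The difference in response was called for 4 of 6 factors between Tet-PTF1a and Tet-MIST1 (36.4% of all genes tested). GATA6 was 1 of these 4, and it was listed for Tet-PTF1a through Dox. Between Tet-PTF1a and Tet-One 2 of 6 were called (12.9%), and between Tet-MIST1 and Tet-One 0 of 6 (1.66%). In that last comparison GATA4 and FOXA2 had an unadjusted p under 0.05 (0.0414 and 0.0159), and DESeq2 called 0 as well. Without Tet-One Dox replicate 1, GATA4 and MYC joined the calls between Tet-PTF1a and Tet-One (FDR 0.0259 and 0.0285), and GATA4 was called between Tet-MIST1 and Tet-One (FDR 0.0473).

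**Figure D3:**
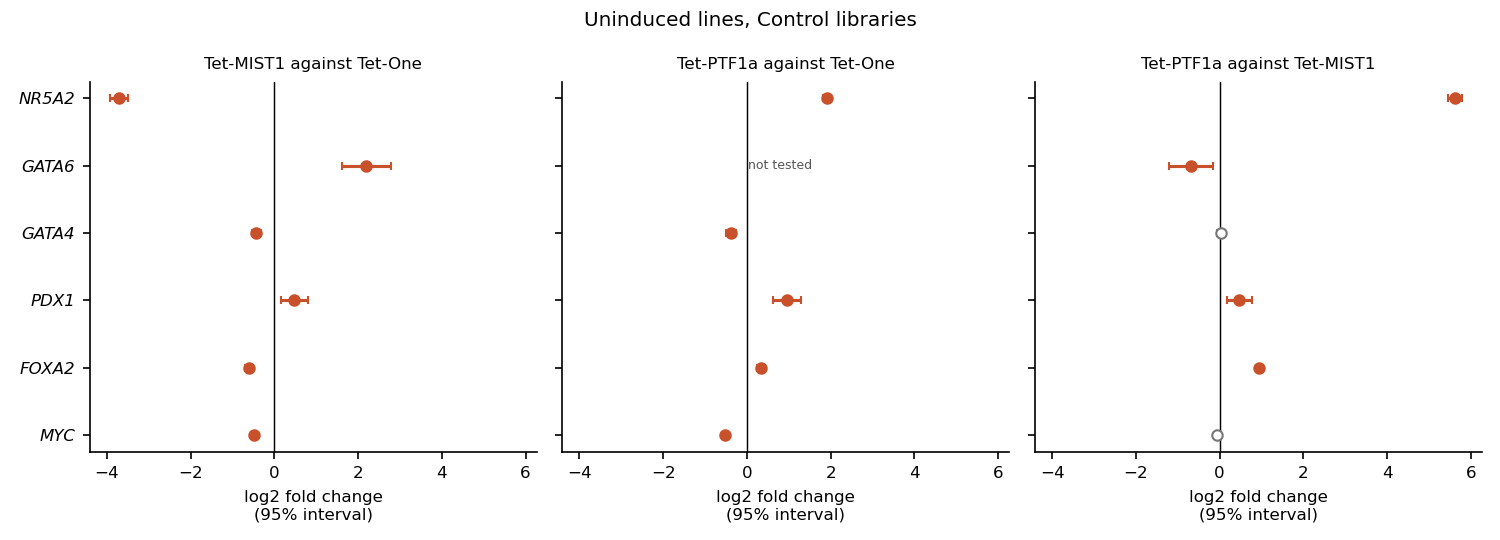
Log2 fold change between uninduced lines for the 6 factors listed for all lines (edgeR estimate without a prior count, with 95% interval, 4 Control libraries per line); filled orange points passed FDR 0.05 and open grey points did not. NR5A2 dominates, at 5.62 between Tet-PTF1a and Tet-MIST1 without a prior count, and the intervals of GATA4 and MYC include 0 between these lines.

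Between uninduced lines most genes differed, and so did most factors. All 6 factors were called between Tet-MIST1 and Tet-One (80.2% of all genes tested), 5 of 5 between Tet-PTF1a and Tet-One (79.7%), and 4 of 6 between Tet-PTF1a and Tet-MIST1 (86.3%). With backgrounds this high the counts say little about the factors. What set NR5A2 apart was size. Its baseline difference between Tet-PTF1a and Tet-MIST1 (5.52 on the log2 scale) exceeded its Dox response in Tet-PTF1a (0.99). In CPM, for MYC and GATA4 the Tet-One Control mean stood above the Tet-PTF1a Control mean by 44.7 and 7.92. Dox lowered their Tet-PTF1a means by less, 8.46 and 2.11 CPM, the latter without passing the test. For the other factors the CPM gap between uninduced Tet-PTF1a and Tet-One was smaller than the Dox change in Tet-PTF1a. These were 28.1 and 37.4 for NR5A2, and 12.7 and a fall of 19.2 for FOXA2. For PDX1 they were 0.845 and 0.933, and for GATA6 0.322 and 0.337, which are close pairs. This order belongs to the CPM scale. As ratios, uninduced Tet-PTF1a stood over Tet-One by 3.80 for NR5A2, 1.91 for PDX1 and 3.19 for GATA6. Dox over Control in Tet-PTF1a was less, at 1.98, 1.53 and 1.72. For FOXA2 the order held, at 1.27 between the lines and 1.46 for Control over Dox. Between uninduced Tet-PTF1a and Tet-MIST1 the FOXA2 gap was 29.4 CPM. Each of these comparisons uses the same Control libraries as the Dox comparison of its line.

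To set the factors beside each other, CPM was divided by the listed exon length (CPM per 1000 bases, RPKM). MYC was highest and FOXA2 next in every group, and their ranges did not overlap. MYC levels ran from 40.0 ± 0.988 RPKM in Tet-PTF1a Dox to 63.6 ± 1.47 RPKM in Tet-One Dox (SD, n = 4 each), and FOXA2 levels from 11.1 RPKM in Tet-MIST1 Dox to 23.2 RPKM in Tet-PTF1a Control. NR5A2 changed place by line. It came after GATA4 in Tet-One (1.92 RPKM against 8.96 in Control), was last in Tet-MIST1 Control (0.147 RPKM, overlapping with GATA6 at 0.179) and came next after FOXA2 in Tet-PTF1a, where it overlapped with GATA4 in Control (7.31 and 6.92 RPKM) and stood clear of it in Dox (14.5 and 6.38 RPKM). PTF1A reached 3.69 ± 1.28 RPKM in Tet-PTF1a Dox, below GATA4 and above PDX1 (1.05 RPKM), and BHLHA15 reached 0.926 RPKM there, overlapping with PDX1.

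**Figure D4:**
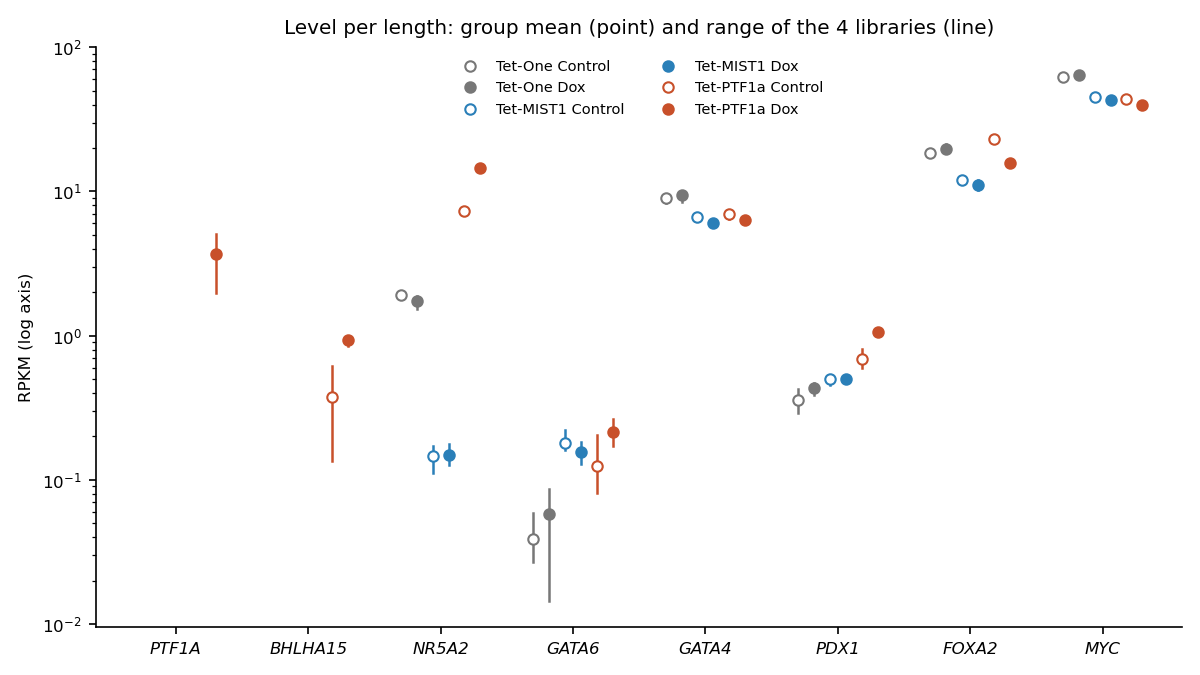
Level per length (RPKM, log axis) of the 8 factors in the 6 groups, as the group mean (point) and the range of the 4 libraries (line), with open points for Control and filled points for Dox; PTF1A in Tet-PTF1a Control is not drawn because it held a library at 0. MYC and FOXA2 lead in every group, and NR5A2 spans from 0.147 RPKM in Tet-MIST1 Control to 14.5 RPKM in Tet-PTF1a Dox.

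The genes whose pattern over the 24 libraries was most like each factor were taken as the 3 with the highest Pearson correlation of log2 CPM among 13506 genes. These correlations describe libraries that share a line, clone and depth, and most of the variation is between lines. For NR5A2 they were SEMA3D (0.997), CDH1 (0.996) and EPHA7 (0.995). CDH1, the epithelial cadherin, had group means of 5.00 and 3.92 CPM in Tet-One Control and Dox, 0.532 and 0.590 CPM in Tet-MIST1 and 13.6 and 23.9 CPM in Tet-PTF1a. For FOXA2 the closest gene was the long noncoding RNA LINC00261 (0.977), which is listed 2361 bases from FOXA2 on the same strand of chromosome 20 (chr20:22541192-22559280 in hg19). LINC00261 fell from 52.2 to 17.2 CPM in Tet-PTF1a with Dox (log2 fold change -1.58, SE 0.0453, edgeR FDR 4.65e-33), more than FOXA2 did, and fell in Tet-MIST1 by 0.41 (FDR 0.00405). How the counting treated strand is not given in the sources used here, and the listed exons of the pair do not overlap. DLL1, a Notch ligand, was closest to PDX1 (0.964), NT5DC2 to MYC (0.990), MAP4K2 to GATA4 (0.971) and FOXS1 to GATA6 (0.911). Among the factors themselves, GATA4 and MYC varied together (0.937), and GATA6 varied against both (-0.872 with GATA4, -0.856 with MYC).

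The wider pathway was read from lists of genes. Of the partners in the PTF1 complex, RBPJ, the E proteins TCF3, TCF4 and TCF12 were tested, and RBPJL was not listed. In Tet-PTF1a with Dox, RBPJ rose from 67.9 ± 1.62 to 75.6 ± 2.07 CPM (log2 fold change 0.16, edgeR FDR 3.39e-05) and TCF4 fell from 12.1 ± 0.673 to 8.23 ± 0.641 CPM (-0.54, FDR 6.48e-09; SD, n = 4 each). The difference from the Tet-One response did not pass for RBPJ (0.27, edgeR FDR 0.0915) or TCF4 (-0.59, FDR 0.0670). From the Tet-MIST1 response RBPJ differed (0.23, FDR 0.00166) and TCF4 did not (-0.10, FDR 0.704). Without Dox, TCF4 had the same order of lines as NR5A2, at 2.87 CPM in Tet-One, 1.95 CPM in Tet-MIST1 and 12.1 CPM in Tet-PTF1a Control. TCF3 was at 130 and 125 CPM and TCF12 at 114 and 112 CPM in Tet-PTF1a Control and Dox without passing the test. In Tet-MIST1, TCF12 fell by 0.21 (FDR 0.0427), and the median change of the list was -0.13, against -0.04 in Tet-PTF1a and a median near 0 over all genes in both. That TCF12 response was not called different from the Tet-One response (-0.08, edgeR FDR 0.964).

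Of 12 paralogs of the factors, 7 were tested in Tet-PTF1a, 2 rose and 2 fell (57.1% called, against 48.2% of all genes tested; median log2 fold change -0.06, against 0.001). FOXA1, the paralog of FOXA2, rose from 1.01 ± 0.178 to 4.40 ± 0.383 CPM (log2 fold change 1.98, SE 0.144, edgeR FDR 2.52e-17; SD, n = 4 each) while FOXA2 fell, and FOXA1 was not listed for the other lines. GATA3 fell by 1.00 and GATA5 by 0.61 on the log2 scale, and MYCL rose by 0.36 (FDR 0.0420). In Tet-MIST1 1 of 5 paralogs tested was called (20.6% of all genes), MYCL, which rose by 0.59 (FDR 0.0109). Between uninduced lines all 6 paralogs tested differed for Tet-MIST1 against Tet-One, where 80.2% of all genes tested did, with GATA5 at -1.97, GATA3 at 1.93, MYCL at -1.41 and GATA2 at 1.03.

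Of 20 other progenitor, acinar and ductal factors, 14 were tested in Tet-PTF1a, 5 rose and 2 fell (median 0.10), and these 7 of 14 are close to the 48.2% called of all genes tested. XBP1, the regulator of secretory capacity, rose from 50.7 ± 6.38 to 99.0 ± 5.26 CPM (log2 fold change 0.95, edgeR FDR 1.63e-04), and SOX17 rose by 0.58 (FDR 1.54e-04). SOX17 also stood higher with Dox in Tet-One, by 0.49 without passing the test (edgeR FDR 0.897). Its responses in these lines differed by only 0.07 (FDR 0.858), whereas those of XBP1 differed by 1.03 (FDR 0.00175). Of the 14, 3 differed from Tet-One in response (21.4%, against 12.9% of all genes tested). NR0B2, a corepressor that binds NR5A2 protein, fell by 0.61 (FDR 0.00160), and ONECUT3 fell by 0.48 (FDR 2.92e-04). In Tet-MIST1, 1 of 12 rose (HHEX, 0.32) and 2 fell (GLIS3, -0.43, and the ductal factor SOX9, -0.18), which makes 3 of 12 called where 20.6% of all genes were. The Tet-MIST1 and Tet-One responses differed for 0 of 14 genes of this list (1.66% of all genes tested). HHEX stood higher with Dox in Tet-One by 0.32 as well, without passing the test (edgeR FDR 0.897). SOX9 moved the other way in Tet-PTF1a, from 245 ± 10.2 to 301 ± 7.26 CPM (0.30, edgeR FDR 8.19e-15; SD, n = 4 each). Its Tet-PTF1a response differed from that of Tet-MIST1 by 0.49 (FDR 1.47e-07) and from that of Tet-One by 0.27 (FDR 0.0105). Before Dox, NR0B2 was, like NR5A2, lowest in Tet-MIST1, with 0.0628 CPM (2 to 3 counts per library) against 4.98 CPM (189 to 200 counts) in Tet-One, through which alone it passed the filter of that comparison, whereas HNF4G stood at 10.8 CPM in Tet-PTF1a, 2.11 CPM in Tet-One and 0.673 CPM in Tet-MIST1. Of 12 endocrine factors 3 were tested in Tet-PTF1a and NKX6-2 fell (-0.42, FDR 6.09e-05), as it did in Tet-MIST1 (-0.61, FDR 0.0179). Of 30 acinar secretory products 4 were tested in Tet-PTF1a and PRSS1, a trypsinogen gene, was called higher. It had 1 to 4 counts per library in Control and 49 to 114 in Dox, so it passed the filter only through Dox and had to differ. Trypsinogen paralogs are near-identical, so reads could have been split or shared between them.

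Around MYC, 12 of 15 genes of the MAX network were tested. In Tet-PTF1a with Dox 4 rose and 4 fell (66.7% called, against 48.2% of all genes), among them MAX itself (0.23, edgeR FDR 1.04e-05), MYCL (0.36), the MYC antagonist MXD1 (-0.23, FDR 0.00499) and MLXIPL (-0.71, FDR 1.10e-04). The response differed from that of Tet-One for 1 of the 12, MLXIPL (-0.69, edgeR FDR 0.0349), where 12.9% of all genes tested differed. In Tet-MIST1 the antagonist MXD3 rose from 16.5 to 28.9 CPM (0.81, FDR 1.01e-05) and MYCL rose, with no gene of the list lower (16.7% called, against 20.6% of all genes). MXD3 also stood higher with Dox in Tet-One, by 0.51 without passing the test (edgeR FDR 0.897). The difference between these MXD3 responses did not pass (0.29, FDR 0.636), while that for MYCL did (0.71, FDR 0.0236). All 57 MYC target genes on the list were tested. In Tet-PTF1a 21 rose and 11 fell (56.1% called, against 48.2% of all genes) with a median log2 fold change of 0.05 against 0.001 over all genes, while MYC itself fell by 0.12. Most of these changes were small, and the exception was DUSP2, at 0.886 CPM in Control and 4.36 CPM in Dox (2.26, FDR 7.89e-18). In Tet-One the same targets had a median of 0.07 with Dox, against 0.004 over all genes, and 0 were called. The Tet-PTF1a and Tet-One responses differed for 3 of the 57, DUSP2 among them (5.26%, against 12.9% of all genes tested). The median of that difference over the targets was -0.03. In Tet-MIST1 5 rose and 1 fell (10.5% called, against 20.6%), with SRM at 0.35, EXOSC5 at 0.29, UTP20 at -0.26 and RRP12 at 0.20. Between uninduced lines 41 of the 57 targets were lower and 12 higher in Tet-PTF1a than in Tet-One (median -0.31), where 40.1% of all genes tested were lower and 39.5% higher. Against Tet-MIST1, 44 were lower and 10 higher (median -0.49; 43.4% and 42.8% of all genes), while the MYC difference did not pass the test. In Tet-MIST1 against Tet-One 30 were higher and 15 lower (median 0.12; 39.5% and 40.7% of all genes), with MYC lower. The medians over all genes were -0.007, -0.005 and -0.008.

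**Figure D5:**
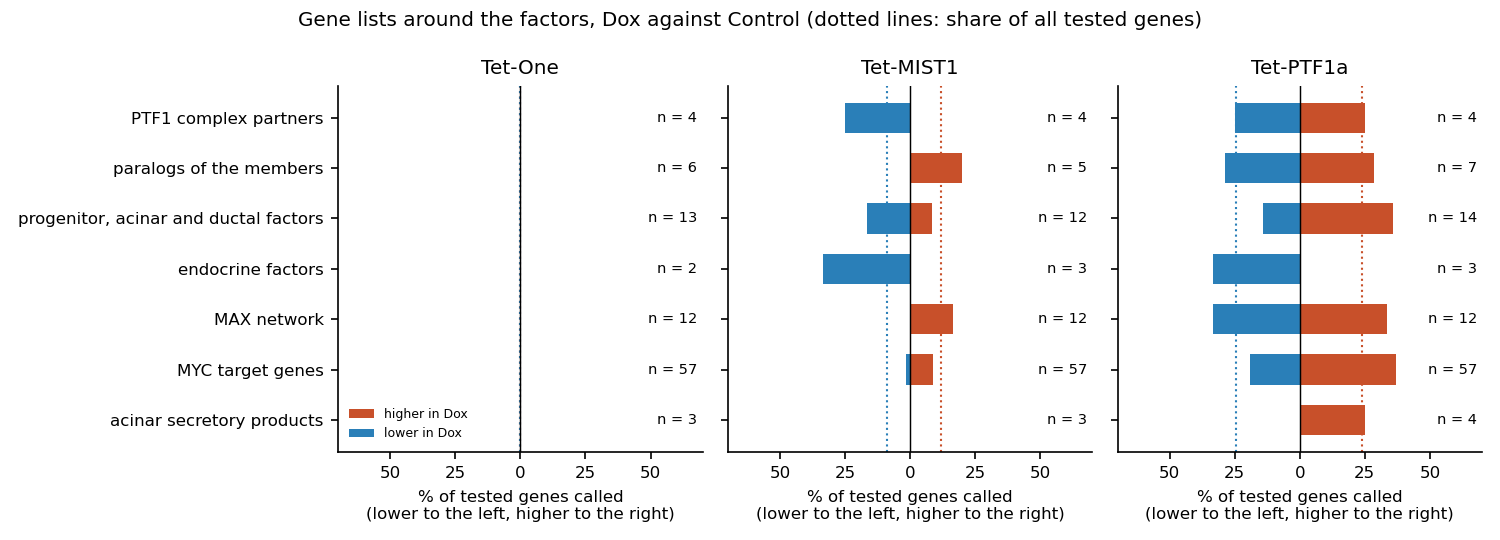
Share of the tested genes of each list called in Dox against Control (percent, edgeR FDR under 0.05), with genes higher in Dox to the right in orange and lower to the left in blue; n is the number of genes tested and the dotted lines are the shares of all genes tested (23.8% higher and 24.4% lower in Tet-PTF1a). No list has a called gene in Tet-One, and in Tet-PTF1a the MYC targets divide into 21 higher and 11 lower of 57.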

How the data were processed

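Groups and replicates follow the sample labels. The authors aligned reads with TopHat to hg19 and deposited, for each line, the unnormalized count per gene. The processing notes also name HTSeq, DESeq and edgeR, without versions. The authors' own scaled CPM columns, kept here as a score because libraries sum to different totals, and their fold change, p-value and FDR columns were deposited too, and were not used. Tet-One and Tet-MIST1 tables listed the same 13879 genes and Tet-PTF1a 14053. Every gene of the first 2 tables exceeded 0.5 CPM in at least 4 of the 16 libraries of both lines, so an absent gene was under a filter.

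Counts were tested with the quasi-likelihood test of edgeR 4.0.16 (R 4.3.3, TMM scaling, robust estimation), over all genes above 0.5 CPM in at least 4 libraries of the fit, with Benjamini-Hochberg adjustment (FDR under 0.05 called). Interactions used 16 libraries and baselines 8 Control libraries, scaled together from raw counts. Log2 fold changes use a prior count of 2; SEs and 95% intervals belong to the estimate without it. The alternatives were DESeq2 1.42.0, library size or RLE scaling, no filter, 10 counts in every library, a replicate block, a log2 fold change of 1 or more in size, all 24 libraries in one fit, a prior count of 0.125 and each library left out. Procedures were tested on simulated data. Replicates were compared in 36 pairs by chi-square, and none agreed within sampling noise (lowest ratio to its degrees of freedom 1.39, highest 238). Depth limits precision for PTF1A, BHLHA15, GATA6 and PDX1, which had 0 to 168 counts.

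The factors and gene lists were chosen with earlier results of these data known, and the lists were written from general knowledge except the MIST1 targets, which the study names. Named genes are all 8 factors, from each list up to 4 called genes with the largest change (every gene of lists of 7 or fewer), and the 3 genes most like each factor. Promoter letters are from RefSeq (GRCh38.p14) and coordinates of genes from the deposited tables (hg19).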

Additional observations from a re-analysis of the deposited data

Results flagged for a closer look

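With 4 libraries per group, 2 of 40 groups of a factor held a library far from the other 3, and chance flags about 1 in 20 groups. PTF1A stood at 0.0 CPM in Tet-PTF1a Control replicate 3, against 0.0461 to 0.0544 CPM in the other Control libraries, which is a difference of 1 or 2 counts. FOXA2 stood at 50.9 CPM in Tet-One Control replicate 4, against 46.6 to 47.2 CPM in the other Control libraries.

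In 6 cases the Dox response of a factor differed between lines in the edgeR interaction test. Between Tet-PTF1a and Tet-One the response differed by 1.13 for NR5A2 and by -0.66 for FOXA2 on the log2 scale. Between Tet-PTF1a and Tet-MIST1 it differed by 0.98 for NR5A2, 1.03 for GATA6, 0.57 for PDX1 and -0.43 for FOXA2. The Tet-PTF1a libraries enter all 6, so these are not independent of each other. GATA6 was listed for Tet-PTF1a through its Dox libraries, so its difference gives no support to a direction.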

How the results depend on the processing

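Over the alternatives other than the fold change limit, 978 of the values for single factors kept their direction and side of the threshold. Of the others, 7 changed direction, 9 gained a call and 4 lost one. The 978 include settings that could not change a call, so they overstate how far the calls were tested. The smaller prior count leaves p-values as they are. Dropping the filter kept the same genes for Tet-PTF1a with Dox and for the differences in response. Requiring a log2 fold change of 1 or more in size, in either direction, left 2 factors called with Dox in Tet-PTF1a, 1 for the difference in response from Tet-One, 1 for that from Tet-MIST1, 2 between uninduced Tet-MIST1 and Tet-One, 1 between Tet-PTF1a and Tet-One and 1 between Tet-PTF1a and Tet-MIST1. The 2 called with Dox in Tet-PTF1a were PTF1A and BHLHA15, which passed the filter only through Dox and had to differ. Between uninduced Tet-MIST1 and Tet-One, GATA6 was 1 of the 2, and it passed the filter through Tet-MIST1. At least 10 counts in every library left 5 factors tested and 4 called in Tet-PTF1a. Leaving out 1 library at a time gave 0 to 1 called factors for the difference between the Tet-MIST1 and Tet-One responses and 2 to 4 for that between Tet-PTF1a and Tet-One, the upper values without Tet-One Dox replicate 1. With Dox in Tet-MIST1 the sign was not fixed for PDX1 (-0.0064 with library size scaling, -0.0375 to 0.0283 over the libraries left out) or NR5A2 (-0.0905 to 0.09), neither of them called. MYC was called between the Tet-PTF1a and Tet-One responses in DESeq2 (adjusted p 0.0290) and between uninduced Tet-PTF1a and Tet-MIST1 without Tet-MIST1 Control replicate 2 (FDR 0.0469). The cause of these shifts was not tested.

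Genes called over all tested moved most for Tet-MIST1 with Dox (2812; 1463 with the replicate block, 1703 in the fit of 24 libraries, 1436 to 3764 over the libraries left out), Tet-PTF1a with Dox (6775; 3128 in the fit of 24 libraries) and the differences in response (231 between Tet-MIST1 and Tet-One; 499 in DESeq2, 83 with the block, 533 in the fit of 24 libraries and 1930 without Tet-One Dox replicate 1; 1738 between Tet-PTF1a and Tet-One, 4146 without that library; 4916 between Tet-PTF1a and Tet-MIST1, 2716 in the fit of 24 libraries). With the limit of 1 they were 55, 501, 48, 409 and 470 in the same order, and 2361, 1279 and 2445 between uninduced lines. Library size scaling moved the split in Tet-PTF1a from 3344 higher and 3431 lower to 4392 and 2698, and the median over all genes by under 0.1. Replicate numbers did not pair the libraries, since same-numbered Control and Dox libraries deviated from their group means with correlations of -0.55 to 0.45 over 6382 genes and the own number was best for 1, 0 and 1 of 4 in Tet-One, Tet-MIST1 and Tet-PTF1a. With the replicate block GATA4 was called in Tet-PTF1a (log2 fold change -0.11, FDR 0.0392), which made 8 of 8, and no other call of a factor changed. Low counts limit GATA6, BHLHA15 and PTF1A, for which intervals are wide and absence from a table says only that a filter was not passed.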
